A study of Mus musculus with 8 samples.

Results

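The 9 genes described here encode parts of the antibody system: the heavy chain constant regions of IgM (Ighm), IgD (Ighd) and IgA (Igha), the kappa light chain constant region (Igkc), the J chain (Jchain), the polymeric immunoglobulin receptor (Pigr), both signalling chains of the B cell receptor (Cd79a and Cd79b) and CD20 (Ms4a1). They were taken by symbol from a table of 52195 genes, and all 9 were found. The table held FPKM values, which are read fragments scaled to gene length and to the size of the library, from bulk RNA sequencing of lung, small intestine, kidney and liver (8 libraries, 2 for each tissue). The tissues came from male C57BL/6 mice (C57BL/6J in the study's methods) of 6 to 10 weeks with no treatment, transgene or deletion named, and each piece was excised, washed in PBS and ground whole. Per the methods all 4 tissues were taken from each mouse, but the labels do not say which replicate numbers share a mouse, so the main fit treats the libraries as separate. The members were read in every tissue, with lung against small intestine as the main comparison. Bulk tissue mixes many cell types, so fewer cells of a type and less RNA per cell cannot be told apart in any value below.

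A naive B cell carries IgM and IgD on its surface, together with the Cd79a and Cd79b chains that pass the signal into the cell, and with CD20. After activation the heavy chain locus can switch from IgM and IgD to IgG, IgE or IgA, and the cell can become a plasma cell, which loses most B cell surface proteins and secretes antibody. At mucosal surfaces the J chain links IgA into polymers, and the polymeric immunoglobulin receptor on epithelial cells carries these polymers to the lumen. In rodents hepatocytes also make this receptor and pass IgA into bile.

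Promoter windows in the RefSeq-derived table (GRCm38.p6) matched 3 of the 9 members, and these 3 happen to stand for the 3 tissue patterns below: Cd79a for genes highest in lung, Jchain for genes high in both lung and small intestine, and Pigr for the gene highest in small intestine. Each window runs from 250 bases before to 50 bases after the RefSeq start, which for Cd79a and Jchain is not the start of the GENCODE gene given below, and they lie at chr7:24897247-24897546 on the plus strand for Cd79a, chr5:88527848-88528147 on the minus strand for Jchain and chr1:130826434-130826733 on the plus strand for Pigr. Capitals mark matches to an E box (CAGGTG on either strand) and to the PU.1 core (GAGGAA on either strand).
Cd79a: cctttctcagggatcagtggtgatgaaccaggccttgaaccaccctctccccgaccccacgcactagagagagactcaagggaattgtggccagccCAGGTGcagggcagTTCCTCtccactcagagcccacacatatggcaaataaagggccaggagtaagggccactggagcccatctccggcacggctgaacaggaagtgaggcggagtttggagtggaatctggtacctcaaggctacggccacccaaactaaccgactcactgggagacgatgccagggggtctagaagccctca
Jchain: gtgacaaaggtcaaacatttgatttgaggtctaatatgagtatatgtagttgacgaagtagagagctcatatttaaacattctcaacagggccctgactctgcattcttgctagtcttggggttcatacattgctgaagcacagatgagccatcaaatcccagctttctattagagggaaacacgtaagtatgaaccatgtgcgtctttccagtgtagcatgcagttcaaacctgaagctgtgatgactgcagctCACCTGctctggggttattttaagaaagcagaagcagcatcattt
Pigr: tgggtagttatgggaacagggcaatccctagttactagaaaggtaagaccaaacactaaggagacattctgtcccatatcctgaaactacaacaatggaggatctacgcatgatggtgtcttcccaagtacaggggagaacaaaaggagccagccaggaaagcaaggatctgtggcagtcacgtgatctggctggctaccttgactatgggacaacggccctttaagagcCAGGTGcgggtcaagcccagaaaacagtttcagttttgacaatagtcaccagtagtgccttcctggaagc
The E box occurred once in each of the 3 windows, and 20.2% of 32815 promoter windows of the same length held it. The PU.1 core occurred in the Cd79a window only, and 28.3% of all windows held it. The octamer ATGCAAAT (1.74% of all windows), the EBF1 motif (TCCC, any 2 bases, GGGA; 0.905%) and the interferon-stimulated element (GAAA, any 2 bases, GAAA; 3.43%) were searched on both strands and had no match in these 3 windows. No match overlapped another. Windows for Ighm, Ighd, Igha, Igkc, Cd79b and Ms4a1 were not analysed here.

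Between 9164187 and 21444675 reads per library fell on genes, as recovered from the size of 1 read in the FPKM values. Tissue labels were checked on markers of each organ's own cells. The summed FPKM of 5 lung genes was 60276 and 74145 in lung and at most 90.9 elsewhere, and that of 5 small intestine genes was 5892 and 7698 in small intestine and at most 57.0 elsewhere. For 5 kidney genes the sums were 2024 and 1410 in kidney and at most 8.80 elsewhere, and for 5 liver genes they were 39046 and 33631 in liver and at most 155.6 elsewhere. The median gene of the 16328 tested was 0.57 higher in lung than in small intestine on the log2(FPKM + 1) scale, a shift that was 0.01 after median-of-ratios scaling, so each difference below is to be read against it.

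**Figure D1:**
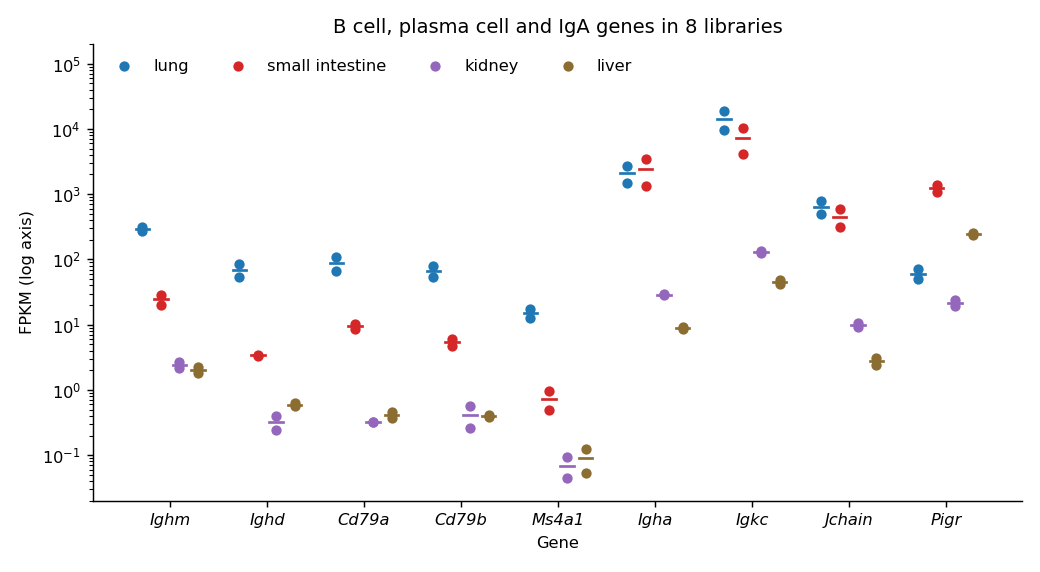
FPKM on a log axis for the 9 genes, with 1 point per library, a short bar at the mean of the 2 libraries and 1 colour per tissue. Ighm, Ighd, Cd79a, Cd79b and Ms4a1 are highest in both lung libraries, Igha, Igkc and Jchain overlap between lung and small intestine, and Pigr is highest in small intestine.

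All 9 members passed the filter (FPKM of 1 in 2 libraries). Of these, 5 were higher in lung than in small intestine and 1 was lower, while 3 did not pass (limma on log2(FPKM + 1), adjusted p under 0.05 and a log2 difference over 1). Among all genes tested, 30.6% were called higher and 10.1% lower in the same comparison. The 5 higher genes were those of the IgM and IgD heavy chains and of the B cell receptor and surface. The lower gene was Pigr. Igha, Igkc and Jchain, the genes of secreted IgA and of the light chain, were the 3 that did not pass.

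Ighm, the first heavy chain class a B cell makes, lies on chromosome 12 (GRCm38, 113418558 to 113422730, minus strand, 6 exon blocks). Its FPKM was 314.0 and 277.2 in lung, 28.7 and 20.04 in small intestine, 2.67 and 2.21 in kidney, and 1.79 and 2.26 in liver. The lung libraries lay far above all others, and those of kidney and liver overlapped. The mean was 295.6 ± 26.0 FPKM in lung and 24.4 ± 6.10 in small intestine (SD, n = 2), a 12.1-fold difference. On the log2 scale lung was higher by 3.57 (SE 0.20, 95% interval 3.09 to 4.04, limma adjusted p = 4.674e-06). Small intestine in turn was 9.99-fold above kidney (log2 difference 2.86), while kidney and liver differed by 0.18 (limma adjusted p = 0.5344).

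Ighd, the class that naive B cells carry beside IgM, lies next to Ighm on chromosome 12 (113406604 to 113416324, minus strand). Its FPKM was 53.1 and 84.6 in lung, 3.49 and 3.35 in small intestine, 0.393 and 0.243 in kidney, and 0.632 and 0.561 in liver. Again both lung libraries stood above the rest without overlap. Lung exceeded small intestine 20.2-fold (log2 difference 3.95, SE 0.23, limma adjusted p = 5.75e-06), and small intestine exceeded liver 5.73-fold (log2 difference 1.47). Only 8 to 16 reads per library supported the kidney and liver values, and their difference of 0.28 did not pass (limma adjusted p = 0.4055).

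Cd79a, on chromosome 7 (24897381 to 24902197, plus strand, 5 exon blocks), encodes the alpha signalling chain of the B cell receptor. It stood at 66.8 and 107 FPKM in lung, 10.3 and 8.73 in small intestine, 0.320 and 0.317 in kidney, and 0.374 and 0.465 in liver. The order was lung, small intestine, then kidney and liver together. Lung was 9.12-fold above small intestine (log2 difference 3.03, SE 0.24, limma adjusted p = 2.205e-05). Of the 31-base words in its transcripts, 12.2% also occurred in another gene, Gm32220, so its level carries that uncertainty.

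Cd79b, the beta signalling chain, lies on chromosome 11 (106311341 to 106314762, minus strand). Its values were 53.8 and 78.7 FPKM in lung, 6.05 and 4.63 in small intestine, 0.261 and 0.565 in kidney, and 0.381 and 0.406 in liver. They followed the same order as Cd79a. The lung mean was 12.4-fold that of small intestine (log2 difference 3.39, SE 0.24, limma adjusted p = 1.263e-05), and small intestine was 12.9-fold above kidney (log2 difference 2.16).

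Ms4a1, which encodes the B cell surface protein CD20, lies on chromosome 19 (11249675 to 11266241, minus strand). It was measured at 12.7 and 17.5 FPKM in lung, 0.501 and 0.971 in small intestine, 0.0452 and 0.0934 in kidney, and 0.0529 and 0.125 in liver. Both lung libraries were higher than every other library, and Ms4a1 reached the FPKM filter of 1 through them alone, so that it had to differ. Lung was 20.5-fold above small intestine (log2 difference 3.21, SE 0.21, limma adjusted p = 8.822e-06). With a pseudocount of 1 the small intestine stood above liver by 0.66 and above kidney by 0.69 (limma adjusted p = 0.02824 and 0.02878), which is under the difference of 1 that a call needs. With a pseudocount of 0.1 these differences became 2.11 and 2.26 and were called. Between 3 and 10 reads per library lay behind the kidney and liver values.

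**Figure D2:**
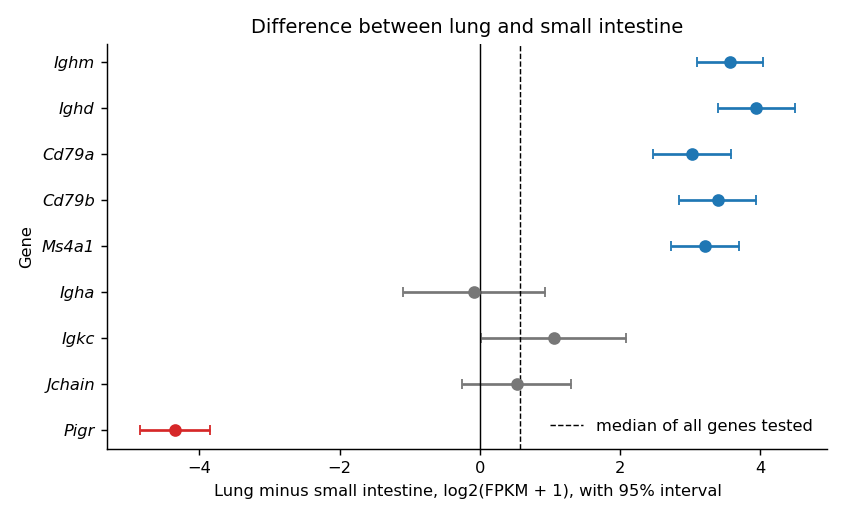
Difference between lung and small intestine in log2(FPKM + 1) for each member, with the 95% interval from the limma fit, and a dashed line at the median of all genes tested (0.57). Blue points were called higher in lung, the red point (Pigr, -4.35) was called lower, and the grey points (Igha, Igkc, Jchain) were not called.

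Igha, the heavy chain of IgA, lies on chromosome 12 (113254830 to 113260236, minus strand, 4 exon blocks). Its FPKM was 2738 and 1504 in lung, 3454 and 1336 in small intestine, 29.0 and 28.1 in kidney, and 9.33 and 8.53 in liver. The lung values lay between those of the small intestine libraries, so these tissues overlapped completely. The means were 2121 ± 873 in lung and 2395 ± 1497 in small intestine (SD, n = 2). The log2 difference of -0.08 had a 95% interval from -1.10 to 0.94 (limma adjusted p = 0.8838), and its sign changed under some settings. The lung mean was 74.2-fold that of kidney (log2 difference 6.10, limma adjusted p = 1.229e-05).

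Igkc, the constant region of the kappa light chain shared by all antibody classes, is a single exon on chromosome 6 (70726435 to 70726966, plus strand). It reached 19027 and 9702 FPKM in lung, 10309 and 4157 in small intestine, 127 and 132 in kidney, and 42.3 and 47.9 in liver. The second lung library lay below the first small intestine library, so the tissues overlapped. The mean was 1.99-fold higher in lung, with a log2 difference of 1.05 (95% interval 0.02 to 2.09, limma adjusted p = 0.07046). Without small intestine replicate 1 the difference was 1.71 and was called (limma adjusted p = 0.01277, with 0.01277 to 0.7133 over all alternatives). In this and every fit that leaves out a library, the lone library of that tissue is assumed to vary like those of the other tissues.

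Jchain, which links IgA or IgM units into polymers, lies on chromosome 5 (88519809 to 88527891, minus strand). Its FPKM was 791 and 489 in lung, 598 and 310.1 in small intestine, 10.4 and 9.20 in kidney, and 3.03 and 2.42 in liver. Here too lung and small intestine overlapped, and both were far above kidney. The log2 difference between lung and small intestine was 0.53 (95% interval -0.25 to 1.31, limma adjusted p = 0.1987), and it turned to -0.26 under median-of-ratios scaling. Without small intestine replicate 1 it was 1.001 and was called (limma adjusted p = 0.03476, with 0.03334 to 0.8893 over all alternatives).

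Pigr, the receptor that carries polymeric IgA and IgM across epithelium, lies on chromosome 1 (130826684 to 130852249, plus strand, 13 exon blocks). It was measured at 70.8 and 49.6 FPKM in lung, 1397 and 1073 in small intestine, 23.8 and 19.6 in kidney, and 235 and 249.8 in liver. The 4 tissues did not overlap, in the order small intestine, liver, lung and kidney. Small intestine was above lung by 4.35 on the log2 scale (SE 0.21, limma adjusted p = 2.47e-06), and liver was 4.03-fold above lung (log2 difference 2.01). The step from kidney to lung was 2.77-fold (log2 difference 1.41, limma adjusted p = 0.0006571), but it was not called under median-of-ratios scaling (0.33) or with equal sums without mitochondrial genes and pseudogenes (0.73).

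The other pairs of tissues set lung and small intestine above kidney and liver for most members. All 9 members were higher in lung than in kidney, where 41.4% of all genes tested were called higher. In lung against liver 8 were higher and Pigr was lower, beside backgrounds of 55.5% and 7.21%. Small intestine exceeded kidney in 8 members (background 18.8%) and liver in 8 members (background 28.3%), with Ms4a1 the exception in both. The Ighd call against liver was lost under quantile normalization (log2 difference 0.86).

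Between kidney and liver 3 members were higher in kidney and Pigr was lower, beside backgrounds of 16.2% and 6.9%. The 3 were the genes that did not separate lung from small intestine: Igha was 3.20-fold (log2 difference 1.58), Igkc 2.88-fold (1.51) and Jchain 3.60-fold (1.54) above liver. Without kidney replicate 1 the differences were 1.55, 1.54 and 1.46, and without liver replicate 2 they were 1.52, 1.60 and 1.42, and none of these was called. Without kidney replicate 2 or liver replicate 1 the Igha (1.60 and 1.63) and Igkc (1.48 and 1.42) calls were lost as well. The 5 genes of the IgM and IgD chains and the B cell surface did not pass between kidney and liver. In kidney and liver the 8 members other than Pigr stood at 0.294% to 1.63% of their lung mean. The lung epithelial genes Sftpc, Scgb1a1 and Sftpb, which kidney, liver and intestine should lack, stood at 0.0204% to 0.132% of their lung mean in the other 6 libraries. Whether RNA was carried over between libraries was not tested, and these genes could show carry-over from lung only.

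The share of each heavy chain class was taken from the summed FPKM of all heavy chain constant genes. Igha made up 59.8% and 53.5% of this sum in lung, 98.8% and 97.6% in small intestine, 59.6% and 73.5% in kidney, and 57.8% and 57.4% in liver. Both small intestine libraries lay above all 6 others. The exact two-sided permutation p was 0.0357, and 2 against 6 libraries can give none smaller. Across 14 shares and ratios and 4 tissues, 56 such tests were made, 12 reached this p, and the Benjamini-Hochberg adjusted value of each of the 12 was 0.167. The lung share was 62.3% when counted in recovered reads in place of FPKM, and 84.4% when IgG and IgE were left out.

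The IgG genes filled most of the rest of the lung share. Their summed share was 32.1% and 33.6% in lung, 0.272% and 0.711% in small intestine, 34.1% and 20.1% in kidney, and 27.1% and 23.7% in liver. Ighm accounted for 6.86% and 9.87% in lung and for 0.820% and 1.46% in small intestine. The small intestine was the lowest tissue for both shares (exact permutation p = 0.0357 in each, adjusted 0.167).

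**Figure D3:**
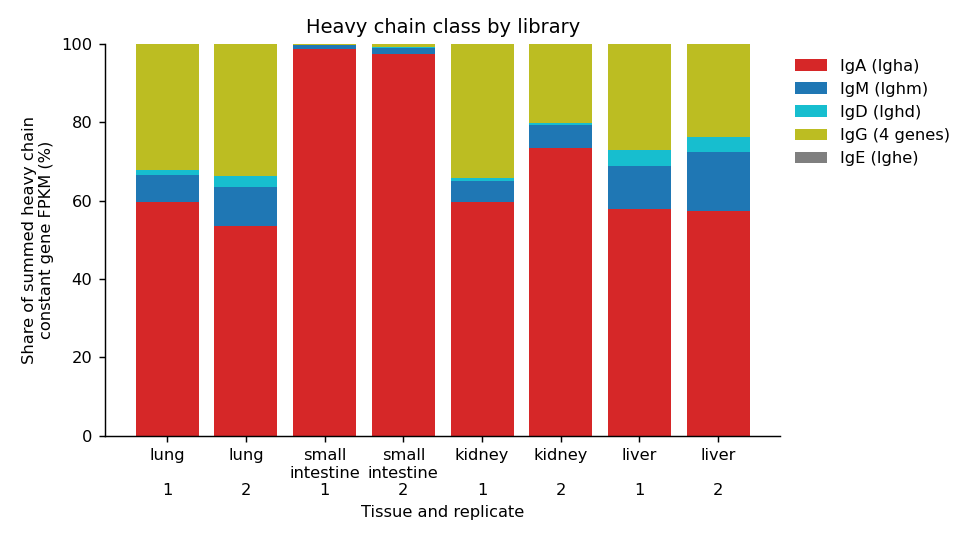
Share in percent of the summed FPKM of the heavy chain constant genes taken by each class, with 1 stacked bar per library. IgA fills 97.6% or more of both small intestine bars and between 53.5% and 73.5% of the other 6.

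Of 7 other antibody constant genes tested, 6 were higher in lung than in small intestine and 1 was lower, beside 30.6% and 10.1% among all genes. Ighg3, 1 of the 6, reached the filter through the lung libraries alone. The largest differences were in the IgG heavy chains. Ighg2c stood at 649 and 269 FPKM in lung and 1.93 and 2.60 in small intestine, a log2 difference of 7.01. Ighg2b stood at 704 and 636 in lung and 5.82 and 5.21 in small intestine (6.69), and Ighg1 at 107 and 33.96 against 1.20 and 1.40 (4.74). The IgG genes share sequence with each other (9.29% of the 31-base words of Ighg2b, for example), so their split among themselves is uncertain.

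The gene that was lower, Iglc1, encodes a lambda light chain constant region, and it is named here after its values were seen. It stood at 169 and 136 FPKM in lung and at 2348 and 311 in small intestine, where 1 library was far above the other. The log2 difference was -2.49 (limma adjusted p = 0.03031), and without small intestine replicate 1 it was -1.03 and not called. The call was also lost with no filter on low values (limma adjusted p = 0.07454) and with quantile normalization (limma adjusted p = 0.07384). The same held in a fit of the lung and small intestine libraries alone (limma adjusted p = 0.0962), and when either lung or either liver library was left out. The kappa share of light chain FPKM was 81.1% and 92.4% in small intestine against 98.2% and 96.9% in lung.

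Ratios between members set the genes of IgA side by side. Igha per unit of Ighm was 8.72 and 5.42 in lung and 120.5 and 66.7 in small intestine, with 3.78 to 12.8 in kidney and liver. Jchain per 100 Igha was 28.9 and 32.5 in lung and 17.3 and 23.2 in small intestine, and Igkc per unit of Igha was 6.95 and 6.45 in lung and 2.99 and 3.11 in small intestine. For each of the 3 ratios the small intestine libraries lay outside the range of the other 6 (exact permutation p = 0.0357, adjusted 0.167). These ratios use FPKM, which divides by exon length, and the gene values do not separate membrane from secreted forms.

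Igha per unit of Pigr was 38.7 and 30.3 in lung, 2.47 and 1.25 in small intestine, 1.22 and 1.43 in kidney, and 0.0397 and 0.0342 in liver. It was lowest in liver (exact permutation p = 0.0357, adjusted 0.167) and highest in lung (exact p = 0.0714). Ighd per 100 Ighm was 16.9 and 30.5 in lung and 12.2 and 16.7 in small intestine, which overlap with the other tissues (exact permutation p = 0.5 for lung and 0.3214 for small intestine). Cd79a per 1000 Igkc was 3.51 and 11.04 in lung and 1.003 and 2.10 in small intestine (exact permutation p = 0.3571 and 0.1071).

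The libraries of lung, and those of small intestine, lay further apart in Igha, Igkc and Jchain than those of kidney and liver. In lung, replicate 1 over replicate 2 was 1.82 for Igha, 1.96 for Igkc and 1.62 for Jchain, but 0.624 for Cd79a, 0.684 for Cd79b, 0.724 for Ms4a1 and 0.628 for Ighd, and 1.13 for Ighm. In small intestine the ratio was 2.59 for Igha, 2.48 for Igkc and 1.93 for Jchain, and 1.18 for Cd79a, 1.31 for Cd79b, 0.516 for Ms4a1, 1.04 for Ighd and 1.43 for Ighm. In kidney it was 1.03, 0.961 and 1.13 for Igha, Igkc and Jchain, and in liver 1.09, 0.882 and 1.25. Igha, Igkc, Jchain, Pigr and Ighm were higher in replicate 1 of both lung and small intestine, while Cd79a, Cd79b, Ms4a1 and Ighd were lower in replicate 1 of lung. The Ms4a1 values of small intestine rest on 29 and 68 reads. As a share of library reads the 9 members together took 2.06% and 1.17% in lung and 2.19% and 1.09% in small intestine, but 0.0254% to 0.107% in kidney and liver.

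**Figure D4:**
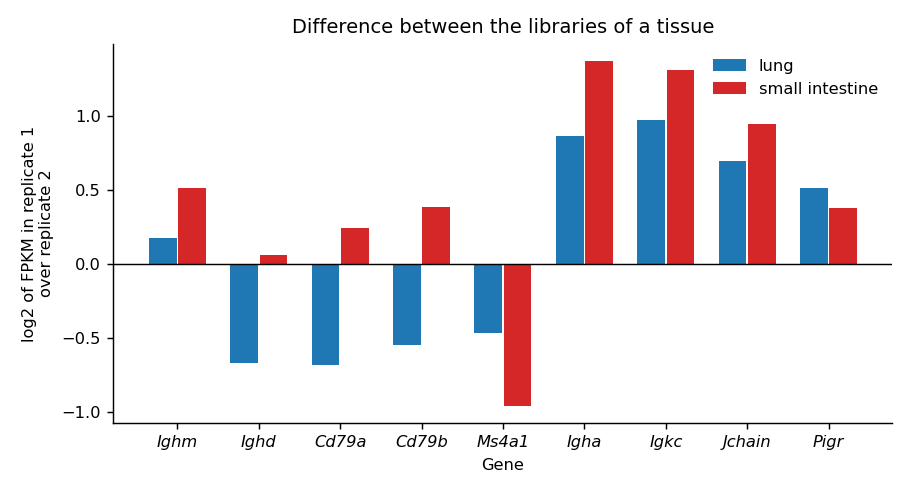
Log2 of the FPKM ratio of replicate 1 over replicate 2 for each member in lung and small intestine, with bars above 0 where replicate 1 is higher. Igha, Igkc, Jchain, Pigr and Ighm are above 0 in both tissues, and Cd79a, Cd79b, Ms4a1 and Ighd are below 0 in lung.

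Most B cell identity genes were higher in lung. Of 22 tested, 20 were higher in lung than in small intestine and 2 (Ralgps2 and Blnk) did not pass, with a median log2 difference of 2.34, beside 30.6% called higher among all genes. However, 11 of the 20 reached the FPKM filter of 1 through the lung libraries alone and so had to differ. Of the other 11 tested, 9 were higher. Under median-of-ratios scaling 17 were higher and 1 lower, where 2444 of all 16328 genes were higher and 2575 lower. Vpreb3 stood at 29.8 and 28.3 FPKM in lung and 0.746 and 0.925 in small intestine (4.03). Fcmr, a receptor for IgM, stood at 16.3 and 23.7 against 0.554 and 0.560 (3.73).

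Of 12 plasma cell genes tested, 4 were higher in lung and 8 did not pass, a share near the 30.6% of all genes, with a median of 0.62 that lay close to the 0.57 of all genes. Mzb1, a chaperone of antibody assembly, stood at 47.1 and 42.5 FPKM in lung and 13.6 and 7.51 in small intestine (2.04). Sdc1, the plasma cell surface protein CD138 that epithelium and hepatocytes also make, stood at 46.3 and 47.8 against 14.5 and 11.9 (1.77). Irf4, a transcription factor of plasma cells, stood at 6.18 and 4.99 against 1.72 and 1.21 (1.42). Only 1 of the 12 was called under median-of-ratios scaling.

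Of 6 germinal centre genes tested, 5 were higher in lung and Rgs13 did not pass, beside 30.6% higher among all genes. As 4 of the 5 reached the filter through the lung libraries alone, the count carries little weight. S1pr2 stood at 5.05 and 5.13 FPKM in lung and 0.255 and 0.199 in small intestine (2.31), Mef2b at 2.92 and 5.22 against 0.304 and 0.315 (1.91), and Bcl6 at 6.77 and 7.31 against 1.53 and 2.32 (1.47). Bcl6, the called gene that did not reach the filter through lung alone, also stood at 8.53 and 8.62 in liver and at 4.49 and 5.70 in kidney. Under median-of-ratios scaling 2 were higher and 1 was lower, with the 2444 and 2575 of all genes given above.

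Genes of signals that guide and sustain IgA cells went both ways. Of 10 tested, 6 were higher in lung, 3 were lower and 1 did not pass, with a median of 1.41, beside 30.6% higher and 10.1% lower among all genes. Under median-of-ratios scaling 4 were higher and 3 lower, with a median of 0.75. Ccl25, a gut homing chemokine of the intestinal epithelium, stood at 0.839 and 0.767 FPKM in lung and 81.3 and 85.0 in small intestine (-5.54). Ccl19 and Cxcl13, chemokines of lymphoid tissue, stood at 87.1 and 101.1 against 2.61 and 1.35 (5.02), and at 49.96 and 33.4 against 3.25 and 1.77 (3.61). The other lower genes were Ccl28 and Madcam1. Madcam1 reached the filter through the small intestine libraries alone and so had to differ, and of the other 9 tested 6 were higher and 2 lower. Among 5 other antibody receptors 3 were higher in lung and 2 did not pass (30.6% higher among all genes). Beside Fcmr, which also stands in the B cell list and reached the filter through lung alone, these were Fcer2a at 16.2 and 23.2 against 1.38 and 1.06 (3.20) and Fcgr2b at 9.48 and 10.5 against 1.13 and 1.33 (2.31). Fcer2a stands in the B cell list as well.

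**Figure D5:**
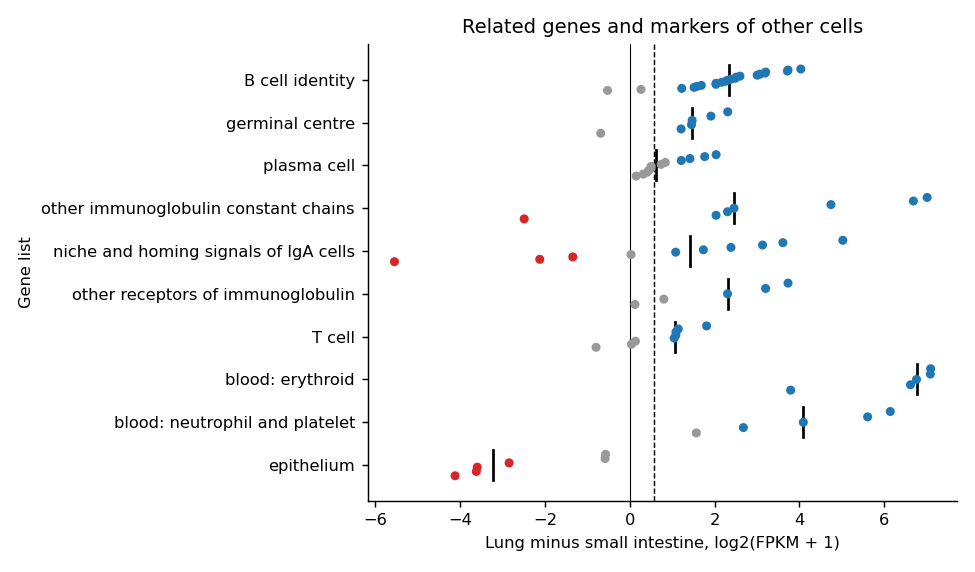
Difference between lung and small intestine in log2(FPKM + 1) for the tested genes of 10 lists, with 1 point per gene (blue called higher, red lower, grey not called), a bar at each list's median and a dashed line at the median of all genes (0.57). The B cell identity list sits at a median of 2.34, the plasma cell list at 0.62 and the epithelial list at -3.22.

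Markers of other cells moved with the same contrast, and their part in the members' values was not tested. All 5 erythroid genes were higher in lung (median 6.76, beside 30.6% higher among all genes), and their summed FPKM was 19195 and 24891 in lung, 327 and 99.8 in small intestine, and 726 to 2409 in kidney and liver. Hba-a1 stood at 5028 and 5959 in lung and 78.8 and 19.1 in small intestine (7.09), Hba-a2 at 5276 and 6254 against 83.1 and 20.3 (7.09), and Hbb-bs at 5445 and 7446 against 97.5 and 34.04 (6.76). Kidney and liver held more erythroid FPKM than small intestine. The summed B cell identity FPKM was 4.09 to 6.68 in kidney and liver and 33.8 and 32.2 in small intestine. What blood adds to these sums was not tested.

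Of 5 neutrophil and platelet genes, 4 were higher in lung (30.6% among all genes), of which S100a8 and Ppbp reached the filter through the lung libraries alone. The list had sums of 92.3 and 400.3 in lung and 5.96 and 4.12 in small intestine. The sum was higher in lung replicate 2, as were Cd79a, Cd79b, Ms4a1 and Ighd, while Ighm was higher in replicate 1. S100a9 stood at 36.3 and 214 in lung and 0.205 and 0.338 in small intestine (6.14), S100a8 at 23.6 and 110 against 0.154 and 0 (5.61), and Ppbp at 10.8 and 23.7 against 0 in both (4.09). These blood genes were not adjusted for.

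Of 8 T cell genes tested, 5 were higher in lung and 3 did not pass (30.6% higher among all genes, with Cd28 reaching the filter through lung alone), and 1 was higher and 1 lower under median-of-ratios scaling. Trbc2 stood at 64.7 and 71.4 in lung and 23.2 and 14.9 in small intestine (1.81), Lck at 13.2 and 14.2 against 5.87 and 5.43 (1.14), and Cd4 at 5.84 and 5.87 against 2.70 and 1.80 (1.09). Of 5 plasmacytoid dendritic cell genes tested, 3 were higher and 1 lower (30.6% and 10.1% among all genes), and 2 were higher under median-of-ratios scaling. Tcf4 reached the filter through lung alone. The values were for Klk1 4.18 and 1.57 against 98.3 and 64.1 (-4.46), for Bst2 112 and 128 against 24.3 and 17.2 (2.49), and for Tcf4 6.01 and 6.04 against 0.741 and 0.623 (2.06). Klk1 stood at 1335 and 899 in kidney, and Bst2 at 138 and 120 in liver. The levels of these genes in bulk tissue therefore cannot be assigned to this cell type.

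Of 6 epithelial genes tested, 4 were lower in lung than in small intestine, as Pigr was, and 2 did not pass, beside 10.1% lower among all genes (median -3.22). All 6 were lower under median-of-ratios scaling, where 2575 of all 16328 genes were. Their part in the Pigr values was not tested. Epcam stood at 38.2 and 32.7 in lung and 548 and 721 in small intestine (-4.11), Cldn7 at 23.4 and 22.2 against 264 and 320 (-3.61), and Krt8 at 102 and 78.3 against 992 and 1197 (-3.59). Their summed FPKM in liver, 162 and 149, was below the 260.1 and 229.8 of lung, while Pigr in liver was above Pigr in lung. Of the organs' own markers, all 5 of lung were higher in lung and all 5 of small intestine were lower (30.6% and 10.1% among all genes). Sis, 1 of the small intestine markers, reached the filter through the small intestine libraries alone and so had to differ. Of 5 liver markers 1 was higher and 3 were lower, and of 5 kidney markers 1 was higher.

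Over the 8 libraries the genes most like Ighm among 10698 candidates were Tnfrsf13b, Irf4 and Thy1 (Pearson r of log2(FPKM + 1) 0.9987, 0.9986 and 0.9979). Those most like Igha were Kdelr3, Jchain and Igkc (0.9990, 0.9974 and 0.9933), and those most like Pigr were Optn, Aldh1b1 and Cyp3a13 (0.9857, 0.9856 and 0.9855). The 8 points are 4 tissues with 2 libraries each, so any gene with the same tissue order scores high and these values describe the tissue pattern only.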

How the data were processed

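Bulk mRNA of lung, small intestine, kidney and liver was measured in 2 libraries per tissue. The authors mapped reads with STAR 2.5.3a to the Ensembl release 75 mouse genome and deposited FPKM values made with DESeq2. The read counter, the use of strand and the treatment of reads with several positions are not given in the sources used here. Reads per gene were recovered from FPKM and GENCODE M21 exon lengths (94.5% to 96.1% of values up to 50 reads were whole within 0.02 reads), and totals ran from 9164187 to 21444675 reads. Genes reaching an FPKM of 1 in 2 libraries or more (16328) were fitted with limma 3.58.1 (R 4.3.3, trend) on log2(FPKM + 1) in 1 fit of 8 libraries, with Benjamini-Hochberg adjustment. A call needs an adjusted p under 0.05 and a log2 difference over 1. A pseudocount of 1 understates the change of low genes. Shares and ratios were compared on a log2 scale with exact two-sided permutation tests (28 ways to choose 2 of 8). The members, lists and tests were chosen with earlier results of these data known. Named genes were the 9 members, the 3 genes of each list with the largest difference between lung and small intestine, any gene set beside a member, and the 3 most correlated genes for Ighm, Igha and Pigr. The values of 1 gene that this rule names are not reported here. Alternatives covered the pseudocount, filters, scalings, the trend, the samples in the fit, the replicate block, recovered reads with limma-voom, and leaving out each library.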

Additional observations from a re-analysis of the deposited data

How the results depend on the processing

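For lung against small intestine, 169 of 180 member values kept their direction and call. The 6 called members stayed called in all 20 alternatives, with log2 differences of 2.78 to 3.89 for Ighm, 3.15 to 4.30 for Ighd, 2.24 to 3.36 for Cd79a, 2.61 to 3.66 for Cd79b, 2.43 to 4.39 for Ms4a1 and -5.11 to -4.09 for Pigr. Members called ranged from 6 to 8, also over the fits that left out 1 library.

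The number of genes called higher in lung was 4990, and it was 3252 with a filter of FPKM 5, 2444 with median-of-ratios scaling and 2624 with quantile normalization, the first of these testing fewer genes. It was 6168 with limma-voom, 6155 with a pseudocount of 0.1 and 5700 with equal sums without mitochondrial genes. Genes called lower were 1644, with 1354 under the filter of FPKM 5, 2575 with median-of-ratios scaling and 2414 with quantile normalization. The share of calls that were higher was 75.2%, against 48.7% with median-of-ratios scaling and 52.1% with quantile normalization. Leaving out 1 library gave 4681 to 5005 higher and 1591 to 1681 lower. The cause of these moves was not tested.

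Igha in lung against small intestine turned to 0.47 with quantile normalization, 0.0861 with equal sums without mitochondrial genes, 0.35 without lung replicate 2 and 0.60 without small intestine replicate 1. Jchain turned to -0.26 with median-of-ratios scaling and was called with quantile normalization (1.18), where Igkc was called as well (1.503), as it was with equal sums without mitochondrial genes (1.22). Between kidney and liver, Cd79b turned to -0.0109 with a pseudocount of 0.1, -0.16 with median-of-ratios scaling, -0.24 with quantile normalization, -0.11 with limma-voom, -0.14 without kidney replicate 2 and -0.0014 without liver replicate 1. Ighm turned to -0.21 with median-of-ratios scaling and -0.19 with quantile normalization. Cd79a turned to 0.0557 and Ms4a1 to 0.0186 with equal sums without mitochondrial genes and pseudogenes, an alternative chosen after seeing the data, and Ms4a1 to 0.0065 without kidney replicate 1 and 0.0219 without liver replicate 2. Leaving out 1 library gave -0.77 to 0.60 for Igha in lung against small intestine, and between kidney and liver -0.14 to 0.17 for Cd79b and -0.0739 to 0.0219 for Ms4a1. None of the values that turned was called. Of 18 alternatives, 8 ended the kidney and liver call of Igha, 7 that of Igkc and 4 that of Jchain.

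With the replicate number as a block, 4984 genes were higher and 1641 lower, and 7 members were called, Igkc having become called (1.05, limma adjusted p = 0.04839). Deviations of same-numbered libraries correlated at -0.118 between lung and small intestine, and at -0.217 to 0.0528 over all pairs of tissues. This cannot tell whether they share a mouse, and the labels do not say, so the numbers were not taken as pairs. Crossing them in a fit of the 4 lung and small intestine libraries, chosen after seeing the data, gave 5022 higher and 1636 lower with 6 members called, and those 4 libraries with no block gave 4976 and 1630, also with 6. In the crossed fit Igkc was not called (limma adjusted p = 0.2713). With 2 libraries per tissue the spread is poorly known. In kidney and liver, Ighd, Cd79a, Cd79b and Ms4a1 rest on only 3 to 16 reads per library.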
